A study of Mus musculus with 9 samples.

Results

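The genes described here carry the acidic end of the cell's recycling system: subunits of the vacuolar proton pump, lysosome-associated membrane proteins, cathepsins and autophagy genes. They were measured in brain tissue of 8-month-old mice, 4 knockout for CAIX and 5 wild type, all on the C57BL/6 background. CAIX, encoded by Car9, is a membrane-bound carbonic anhydrase that hydrates carbon dioxide at the outer face of the cell. The labels give no brain region, sex or targeting construct, and each bead array was taken as 1 animal, since the series' design counts mice. Members were all genes whose symbol starts with Atp6v, Atp6ap, Lamp or Atg and a digit, those named Cts and 1 letter, and Becn1, wherever the NCBI gene number written in a probe's identifier was theirs. The rule itself uses symbols and no measured value. The rule found 32 genes, on 37 probes, among 8127 genes named in this way, and 19 of the 32 had a probe above background on at least 4 of the 9 arrays. All 19 were in fact detected on all 9.

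The V-type ATPase is a rotary motor. Its cytosolic V1 sector hydrolyses ATP, its membrane V0 sector passes protons into the lumen, and the lysosome's acid hydrolases work at the pH it sets. In autophagy, a membrane grows around cytoplasm, closes and fuses with the lysosome, where cathepsins and other hydrolases digest the content. In neurons the pump also acidifies synaptic vesicles and so drives their loading with transmitter, and loss of core autophagy genes from the mouse brain causes neurodegeneration.

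Many genes of this system share a regulator, TFEB, which binds E-box motifs around the letters CACGTG in their promoters. The promoters that hold this motif are shown because they tell which members carry it near their start. RefSeq promoters of build GRCm38.p6, each from 250 bases before to 50 bases after the start of a gene, were matched for 24 of the 32 genes and for 14 of the 19 measured ones. CACGTG, which reads the same on both strands, stood in 4 of the 24 (16.7%), against 8.91% of all protein-coding genes in the same table, and in 2 of the 14 measured genes. The 4 stretches follow 5′ to 3′ on the strand of the gene, with CACGTG in capitals.
Atp6v1a, chr16:44139373-44139402(-): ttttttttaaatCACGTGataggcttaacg
Atp6v0d1, chr8:105566050-105566079(-): ccctactgcggtCACGTGagacgcggtgcg
Ctsl, chr13:64370739-64370768(-): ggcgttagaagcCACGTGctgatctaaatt
Atg3, chr16:45158723-45158752(+): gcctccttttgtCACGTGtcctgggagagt
TCACGTG on either strand, which overlaps these matches, stood in 3 of the 24 promoters (12.5%) and in 874 of the 17491 protein-coding genes of the table. A longer motif with CACGTG at its centre was searched as well. It stood in 0 of the 24 promoters and in 82 of the 17491 protein-coding genes (0.469%). At so low a share, 0 of 24 does not set the members apart from other genes. A match is a run of letters and was not tested as a binding site. Ctsl and Atg3 gave no value above background here. Of the 14 measured genes with a matched promoter, Atp6v1a and Atp6v0d1 hold the motif, and both are described below. Becn1, Atg12, Ctsb, Atp6v0a2 and Atp6v1c1 were measured but had no matched promoter, so the motif was not looked for there.

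The sample labels disagreed with each other, and that touches every difference given here. Titles and genotype characteristics named different genotypes for 6 of the 9 samples, and 4 arrays stood under other samples in the authors' processed table than in their table of signals. Titles and the signal table's headers were followed, and the other 3 readings are given further on. Car9 itself had no matched probe. The probe NeoR-S, by its name one for a neomycin resistance marker, was the available check: it stood at 10.45, 9.90, 9.94 and 10.56 in knockout 1 to 4 and between 6.78 and 6.82 in the 5 wild types, on the log2 scale used throughout. It was above background on 4 of 4 knockout and 0 of 5 wild type arrays by title, and on 1 of 4 and 3 of 5 by the characteristic. NeoR-S thus separated the groups by title and by none of the other 3 readings. Each array detected 14895 to 17325 probes. Knockout 4 was the dimmest, with a median signal of 133.2 against 167 to 209.8 elsewhere.

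None of the 19 genes passed an adjusted p of 0.05 in the knockout against the wild type (limma with Benjamini-Hochberg adjustment over 16375 probes, adjusted p from 0.226 to 0.983). The background was 4 of 16375 probes, or 0.0244%, and 0 of 19 is near that share. Leaving out knockout 1 gave 48 probes past the threshold and 5 of the 19 genes at an unadjusted p under 0.05, with 0 of 19 past the adjusted threshold. At an unadjusted p under 0.05 there were 3 of 19 (15.8%), beside 11.5% of all probes. Becn1 and Atp6v1c1 were higher in the knockout, as were 6.55% of all probes at that p, and Atp6v0a2 was lower, as were 4.9%. The mean was higher in the knockout for 13 genes and lower for 6, beside 49.8% of all probes with a higher mean. Differences were small. Their median was 0.071 on the log2 scale, against -0.00035 over all probes, and 17 of 19 (89.5%) lay within 0.25 of 0, against 90.7% of all probes.

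**Figure D1:**
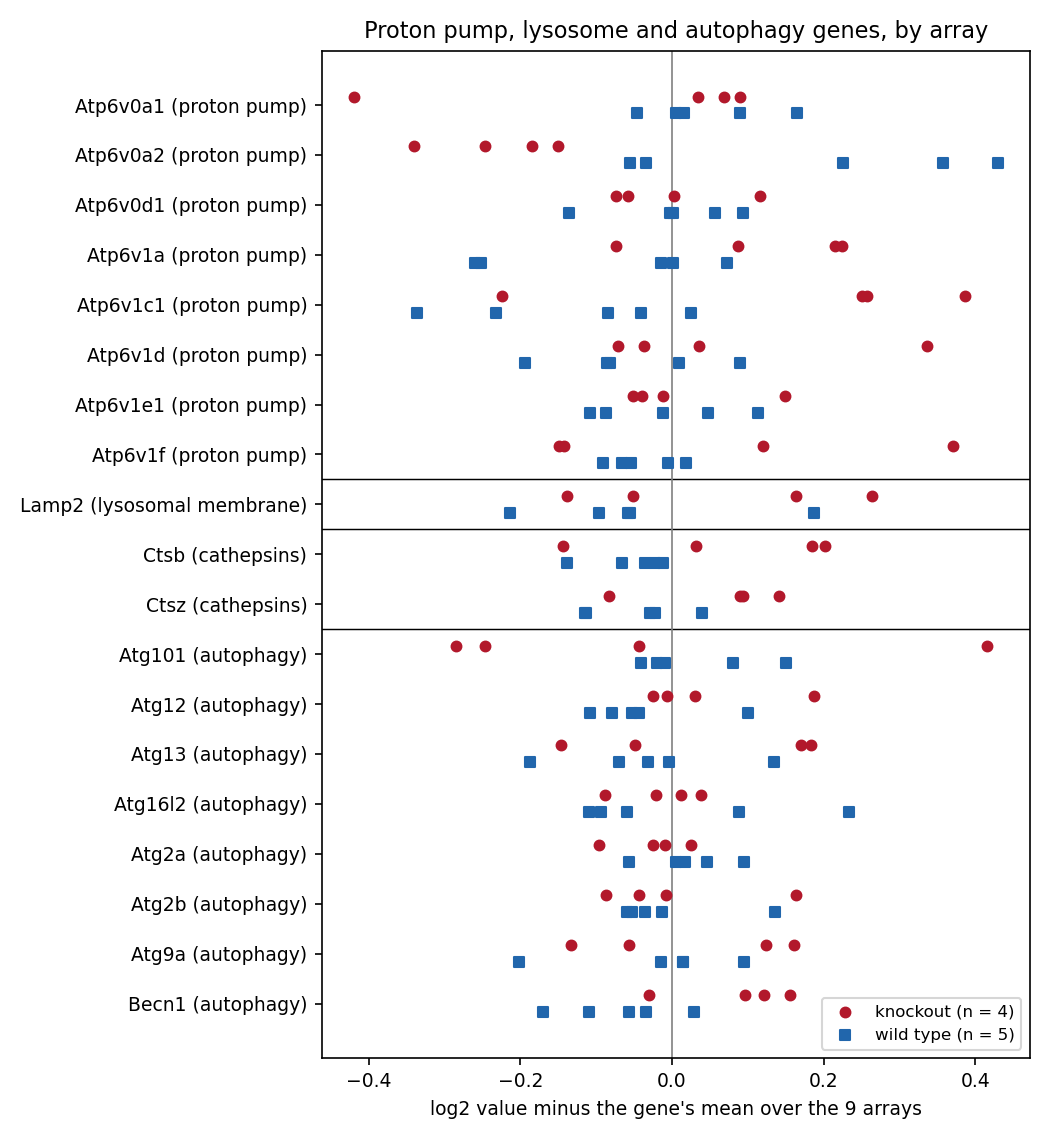
Level of each of the 19 genes on each array, as the log2 value minus that gene's mean over the 9 arrays. In each gene's row the 4 knockout arrays are drawn above the 5 wild type arrays, and genes are grouped by role. Atp6v0a2 is low on the 4 knockout arrays, and knockout 4 is the highest array for 8 genes.

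**Figure D2:**
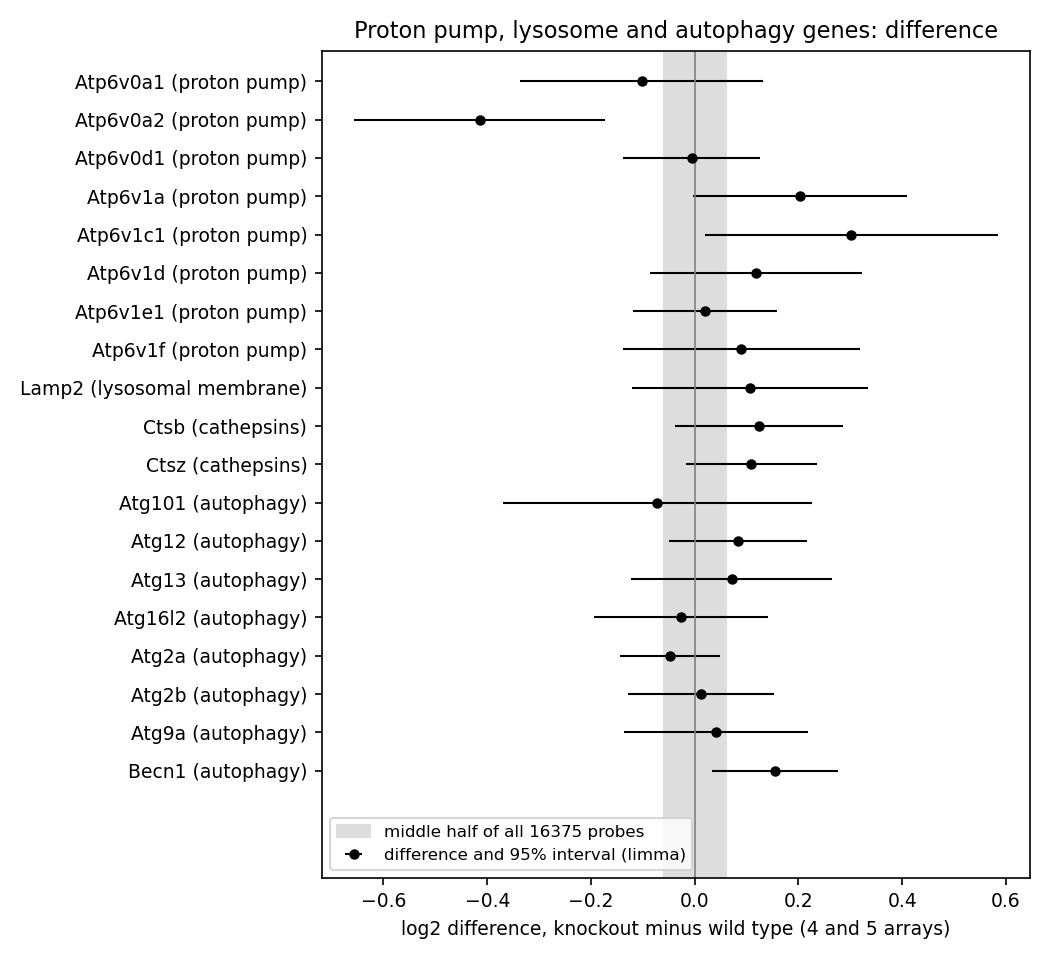
Difference in log2 level, knockout minus wild type, for each of the 19 genes, with its 95% confidence interval (n = 4 knockout and 5 wild type arrays) and a grey band from the lower to the upper quartile of all probes. Atp6v0a2 lies lowest at -0.41 and Atp6v1c1 highest at 0.30, and no gene passed the adjusted threshold.

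Among the 8 measured pump genes the widest difference was in Atp6v0a2, 1 of the a subunits of V0, the part that forms the proton path, found on Golgi and endosomal membranes and mutated in a human form of cutis laxa. It stood at 8.91, 8.94, 8.84 and 8.75 in knockout 1 to 4 and at 9.45, 9.52, 9.32, 9.06 and 9.04 in wild type 1 to 5. The groups did not overlap, and wild type 4 and 5 lay nearest the knockouts. It was the only one of the 19 without overlap, where 3.68% of all probes had none. The mean was 8.86 ± 0.084 (SD, n = 4) in the knockout and 9.27 ± 0.22 (SD, n = 5) in the wild type, a 0.75-fold level, with a log2 difference of -0.41 (95% interval -0.66 to -0.17, limma adjusted p = 0.226). Oligodendrocyte markers were lower in the knockout as well. The mean of their 6 measured genes, each relative to its own mean, was -0.13, -0.06, -0.18 and -0.49 in knockout 1 to 4, against 0.41, 0.22, 0.43, -0.16 and -0.03 in wild type 1 to 5, with 6 of 6 lower in the knockout and none past the adjusted threshold. Of the astrocyte markers 5 of 5 were lower in the knockout (median -0.12), with list means from -0.17 to 0.06 in the knockout and from -0.04 to 0.16 in the wild type. On knockout 4 the oligodendrocyte genes went apart. Mobp was at 8.42 there, against 10.07 to 10.80 on the other arrays, while Opalin had its highest value there, 9.32. The part of the oligodendrocyte and astrocyte markers in the Atp6v0a2 difference was not tested. In whole tissue, fewer cells of a type and less RNA per cell cannot be told apart.

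The other a subunit measured, Atp6v0a1, is the form that neurons carry on synaptic vesicles. It stood at 12.44, 12.42, 12.39 and 11.94 in knockout 1 to 4 and at 12.36, 12.37, 12.52, 12.44 and 12.31 in wild type 1 to 5. Knockout 4 alone was low, and the difference of -0.10 (adjusted p = 0.779) became 0.018 without that array. A second probe of the gene differed by -0.004 (adjusted p = 0.995) and was lowest in knockout 4 as well. The mean of 6 measured neuronal markers was also lowest on that array, at -0.19, against -0.08 to 0.10 in the other knockouts and -0.07 to 0.16 in the wild types, and 5 of the 6 were lower in the knockout. Of these markers only Rbfox3 (12.28) and Nefm (7.94) had their lowest value on knockout 4, and Slc17a7 (10.90) was highest of the knockouts there. Syp and Tubb3 were lower by group mean by only -0.007 and -0.009. The part of the markers in the low Atp6v0a1 value was not tested. Atp6v0d1, the V0 subunit that couples the membrane ring to the rotor and the carrier of a CACGTG at its start, averaged 12.13 ± 0.086 in the knockout and 12.14 ± 0.087 in the wild type (SD, n = 4 and 5), with an interval of the difference from -0.14 to 0.13.

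In the V1 sector, Atp6v1c1 encodes the C subunit, which links V1 to V0 and is released when the pump comes apart. It stood at 9.64, 10.25, 10.11 and 10.12 in knockout 1 to 4 and at 9.63, 9.78, 9.82, 9.89 and 9.53 in wild type 1 to 5. Knockout 2, 3 and 4 exceeded every wild type array and knockout 1 did not. The difference was 0.30 (95% interval 0.02 to 0.58, adjusted p = 0.406), and 0.43 (adjusted p = 0.0790) without knockout 1.

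Atp6v1a, the catalytic subunit that hydrolyses ATP, had knockout 2, 3 and 4 above every wild type array as well. It stood at 12.15, 12.43, 12.31 and 12.44 in knockout 1 to 4, against 11.97, 12.21, 11.96, 12.29 and 12.22 in wild type 1 to 5. Knockout 1 again lay within the wild type values. The difference was 0.20 (95% interval -0.003 to 0.41, adjusted p = 0.440).

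The remaining V1 genes differed less. Atp6v1d, part of the central rotor shaft, averaged 11.32 ± 0.19 in the knockout and 11.20 ± 0.11 in the wild type (SD, n = 4 and 5, adjusted p = 0.688). Atp6v1f, which sits on that shaft, averaged 12.08 ± 0.25 and was spread from 11.88 to 12.40 in the knockout, against 11.99 ± 0.045 in the wild type (SD, n = 4 and 5, adjusted p = 0.806). Atp6v1e1, of the outer stalk, averaged 13.53 ± 0.093 in the knockout and 13.51 ± 0.093 in the wild type (SD, n = 4 and 5, adjusted p = 0.944). By sector, 5 of 5 V1 genes had a higher knockout mean (median 0.12) and 3 of 3 V0 genes a lower one (median -0.10). This split was noticed after the values were seen and no gene in it passed. Without knockout 4 it was 3 of 5 and 2 of 3, by the genotype characteristic 0 of 5 and 1 of 3, and with array weights 3 of 5 V1 genes were higher.

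**Figure D3:**
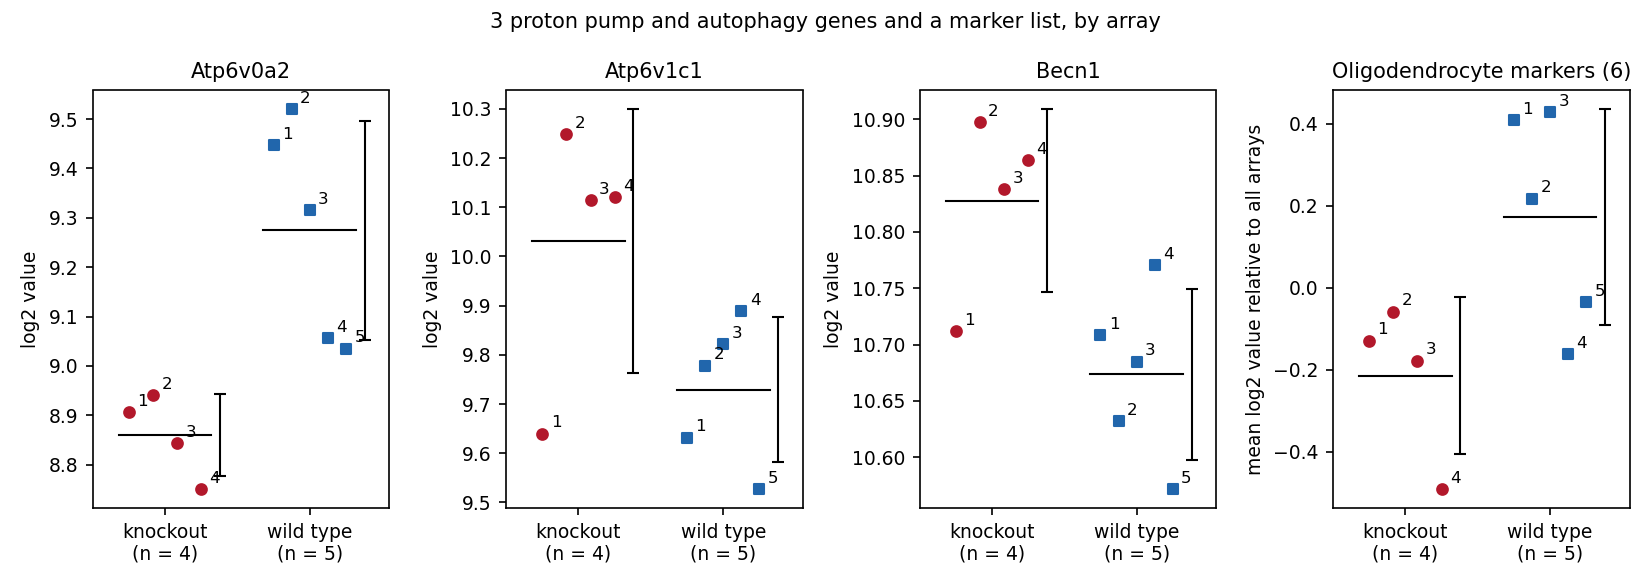
Log2 level of Atp6v0a2, Atp6v1c1 and Becn1 on each array, knockout left of wild type, with the mean and SD of each group (n = 4 and 5). The last panel shows the mean of 6 oligodendrocyte markers, each relative to its own mean over the arrays. Atp6v0a2 separates the groups, while knockout 1 lies among the wild type arrays for Atp6v1c1 and Becn1.

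Of the lysosomal membrane proteins, Lamp2, which lines the lysosome's inner face and in 1 splice form serves chaperone-mediated autophagy, was measured. It stood at 9.51, 9.62, 9.30 and 9.21 in knockout 1 to 4 and at 9.29, 9.54, 9.14, 9.25 and 9.30 in wild type 1 to 5. The groups overlapped almost fully, with a difference of 0.11 (95% interval -0.12 to 0.33, adjusted p = 0.756). It was 0.038 without knockout 2, 0.065 without wild type 3, 0.165 without wild type 2 and 0.173 without knockout 4.

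Of 6 cathepsin genes, 2 were measured. Ctsb, cathepsin B, a cysteine protease of the lysosome, stood at 12.85, 13.19, 13.02 and 13.18 in knockout 1 to 4 and at 12.85, 12.93, 12.96, 12.98 and 12.97 in wild type 1 to 5. Knockout 2, 3 and 4 were above every wild type array, as for Atp6v1c1 and Atp6v1a. The difference was 0.12 (95% interval -0.04 to 0.29, adjusted p = 0.563) and was 0.195 without knockout 1 and 0.080 without knockout 2. A second probe gave 0.10 (adjusted p = 0.882), although the deviations of the probes over arrays correlated at only r = 0.261. Ctsz, cathepsin Z, a carboxypeptidase found mostly in microglia in the brain, stood at 8.40, 8.18, 8.36 and 8.35 in knockout 1 to 4 and at 8.23, 8.15, 8.15, 8.24 and 8.30 in wild type 1 to 5. Knockout 1, 3 and 4 were above all wild types, by a difference of group means of 0.11 (95% interval -0.02 to 0.23, adjusted p = 0.508). The mean of 5 measured microglial markers ranged from -0.17 to 0.08 in the knockout and from -0.18 to 0.20 in the wild type, while the probes for Itgam and Ptprc were not above background on any array.

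Of 12 autophagy genes, 8 were measured. Becn1, Beclin 1, the scaffold of the lipid kinase complex that starts autophagosomes, stood at 10.71, 10.90, 10.84 and 10.86 in knockout 1 to 4 and at 10.71, 10.63, 10.68, 10.77 and 10.57 in wild type 1 to 5. Again knockout 2, 3 and 4 exceeded all wild types and knockout 1 did not. The mean was 10.83 ± 0.081 (SD, n = 4) in the knockout and 10.67 ± 0.076 (SD, n = 5) in the wild type, a difference of 0.15 (95% interval 0.03 to 0.28, limma adjusted p = 0.323).

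Atg12, a ubiquitin-like protein that is joined to Atg5 to help lipidate LC3, stood at 10.04, 10.01, 9.99 and 10.20 in knockout 1 to 4, against 9.93, 9.90, 9.97, 10.11 and 9.96 in wild type 1 to 5. Only wild type 4 overlapped the knockouts, and the difference was 0.08 (95% interval -0.05 to 0.22, adjusted p = 0.656), or 0.036 without knockout 4. Atg2a, which carries lipid to the growing membrane, stood at 7.44, 7.41, 7.39 and 7.32 in knockout 1 to 4, against 7.46, 7.42, 7.51, 7.36 and 7.43 in wild type 1 to 5, a difference of -0.05 (adjusted p = 0.741), or -0.024 without knockout 4 and -0.029 without wild type 3. Its paralog Atg2b averaged 7.90 ± 0.11 in the knockout and 7.88 ± 0.081 in the wild type (SD, n = 4 and 5, adjusted p = 0.971).

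The other autophagy genes sit at the start of the process. Atg13 and Atg101 are partners in the ULK1 kinase complex, and Atg9a is a membrane protein whose vesicles seed the autophagosome. Atg13 averaged 7.76 ± 0.16 in the knockout and 7.69 ± 0.12 in the wild type, and Atg9a 7.64 ± 0.14 in the knockout and 7.59 ± 0.11 in the wild type (SD, n = 4 and 5, adjusted p = 0.819 and 0.902). Atg101 averaged 8.89 ± 0.32 in the knockout and 8.96 ± 0.081 in the wild type (adjusted p = 0.898), and its difference of -0.07 became -0.22 without knockout 4, which at 9.35 was its highest array. Atg16l2, a paralog of the Atg16l1 that places the LC3 lipidation machinery, averaged 7.48 ± 0.055 in the knockout and 7.51 ± 0.15 in the wild type (adjusted p = 0.939).

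The 13 genes without a level above background were Atp6v0a4, Atp6v0c, Atp6v1b1, Atp6v1g1, Lamp3, Ctse, Ctsj, Ctsl, Ctso, Atg3, Atg4a-ps, Atg4c and Atg4d. For 9 of them no array detected a probe, and Atp6v0c was detected on 3 arrays, Atg4c on 2 and Atg4d and Atp6v0a4 on 1 each. Some of these, such as Atp6v0c, the proton-carrying ring of V0, and Ctsl, are abundant in brain as background knowledge. Probes for the abundant neuronal genes Snap25 and Nefl were likewise not above background on any array, so a silent probe says nothing here of the gene's expression.

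Under the other readings of the labels, which did not separate NeoR-S, 0 of 19 genes passed. By the genotype characteristic 5 genes had a higher knockout mean and 14 a lower one, with 1 at an unadjusted p under 0.05 (Atg13, -0.18) beside 4.09% of all probes, and 49% of all probes had a higher mean. With titles read through the processed table the split was 8 higher and 11 lower, with Atg13 and Atg9a under 0.05 (-0.17 each) beside 3.76% of all probes, and 49.8% of all probes had a higher mean. With the characteristic read through that table it was 11 and 8, with 0 under 0.05 beside 2.39% of all probes, and 51% of all probes had a higher mean. Becn1 was 0.15 higher by title and -0.10 by the characteristic, and Atp6v1c1 0.30 and -0.26.

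**Figure D4:**
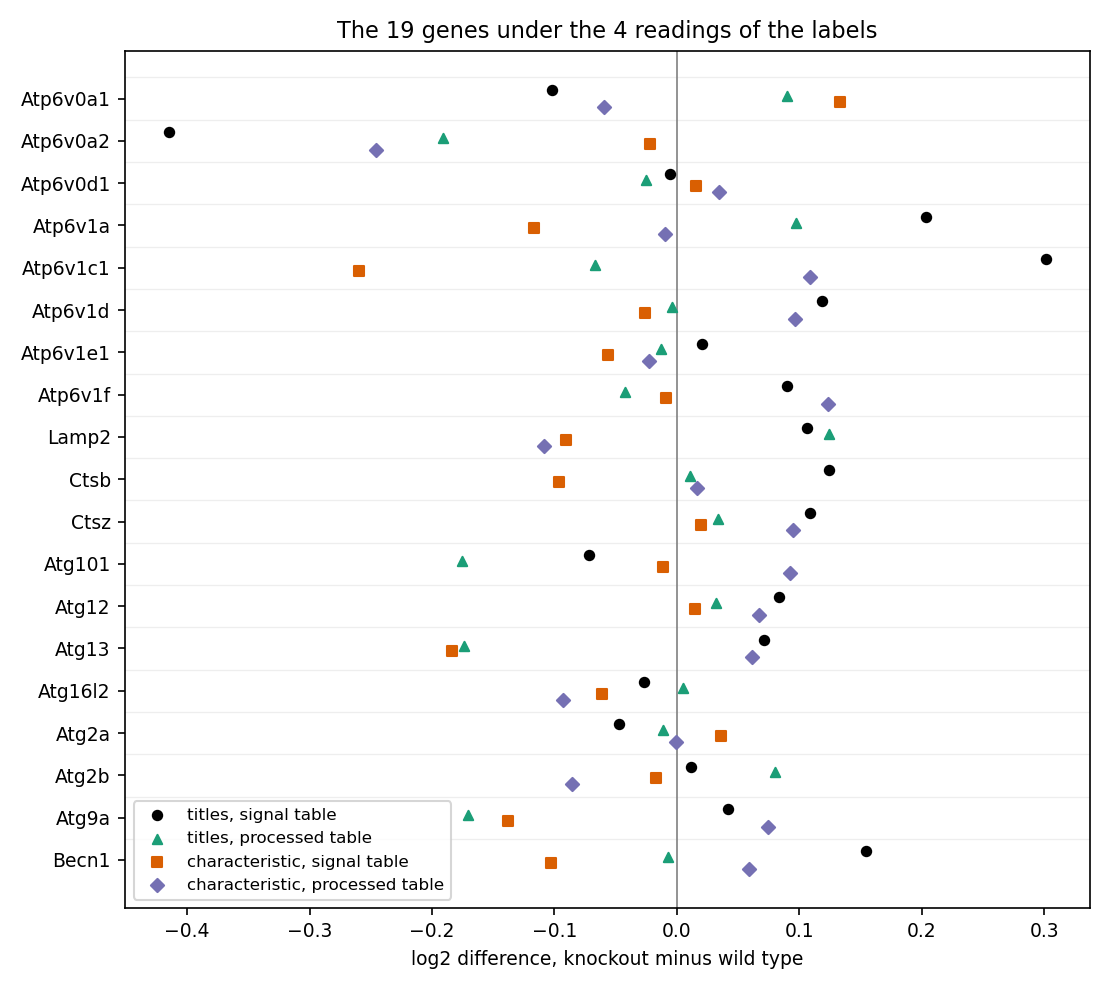
Log2 difference, knockout minus wild type, of the 19 genes under the 4 readings of the labels and tables. By title 13 genes lie above 0, by the genotype characteristic 5, and neither reading has a gene past the adjusted threshold.

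To see how the genes varied together apart from the group means, each gene was centred within its title group and correlated over the 9 arrays. Over 171 pairs the median Pearson r was 0.019, beside 0.010 over all pairs of the 4189 measured named genes, and 53.2% of pairs were positive, beside 50.8%. The 28 pairs within the pump had a median of 0.15 and the 28 within autophagy -0.015. With median scaling in place of quantile normalization the medians were 0.236 for the 171 pairs and 0.116 for all genes.

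The closest pair was Atg13 and Atg9a. Both were low on knockout 1 and 2 and on wild type 4, and high on knockout 3 and 4 and wild type 1. Their centred r was 0.957 and Spearman's rho 0.883 (n = 9, permutation over all 9 arrays p = 0.000198 and 0.00308, two-sided, adjusted over 171 pairs to 0.0339 and 0.208). This permutation also moved values between the groups within which they were centred. Its p, here and for the pairs below, is therefore approximate and can be too small. Without the 2 arrays farthest in Atg13, knockout 1 and wild type 1, r was 0.945, and leaving out any 1 array kept it between 0.939 and 0.983. Exact permutation within the title groups, added after the values were seen, gave p = 0.00486 for r, adjusted to 0.373. This p was above the smallest that orders within the groups can give. Even that smallest would not pass for 1 pair alone among 171. The call was made for Pearson's r over all 9 arrays only, and neither rho nor the permutation within groups passed. The stretches before both starts are shown to set them side by side, with the GC box (GGGCGG), the CAAT box (CCAAT) and the E-box (CACGTG) searched on both strands and printed in capitals where found.
Atg13, chr2:91710593-91710842(-): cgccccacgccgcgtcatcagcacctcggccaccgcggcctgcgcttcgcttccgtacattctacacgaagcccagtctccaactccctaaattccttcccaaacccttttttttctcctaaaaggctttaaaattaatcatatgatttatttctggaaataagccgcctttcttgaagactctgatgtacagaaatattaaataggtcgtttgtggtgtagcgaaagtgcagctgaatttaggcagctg
Atg9a, chr1:75192011-75192260(-): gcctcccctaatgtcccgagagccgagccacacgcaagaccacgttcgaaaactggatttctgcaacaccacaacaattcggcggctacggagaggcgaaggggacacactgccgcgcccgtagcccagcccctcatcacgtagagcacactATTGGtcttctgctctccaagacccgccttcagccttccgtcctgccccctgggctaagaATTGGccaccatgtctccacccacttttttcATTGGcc
The Atg13 stretch holds none of the 3 motifs and the Atg9a stretch holds CCAAT 3 times, each on the opposite strand as ATTGG. The CAAT box stood in 33.3% of the 24 promoters and in 42.3% of all protein-coding genes, and the GC box in 12 of 24 promoters and in 49.2% of all.

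The other pairs named did not pass after adjustment. Atg101 and Atp6v1f had r = 0.936 and rho = 0.767 (permutation adjusted p = 0.116 and 0.363). Their r was 0.754 without knockout 4, on which both were highest. Becn1 and Atp6v1c1 had r = 0.849 and rho = 0.850 (permutation adjusted p = 0.180 and 0.208). Their r was 0.451 without knockout 1 and wild type 5, and 0.728 to 0.921 with any 1 array left out. Atg12 and Atp6v1d had r = 0.832 and rho = 0.5 (permutation adjusted p = 0.263 and 0.741), and r was 0.071 without knockout 4 and wild type 4. The most negative pairs joined Atg2a to V1 subunits. With Atp6v1a r was -0.833 and rho -0.867, and with Atp6v1e1 -0.829 and -0.917 (permutation adjusted p = 0.180 and 0.226 for r and 0.208 for each rho). Without knockout 4 and wild type 4 these r were -0.801 and -0.763, and with any 1 array left out they lay between -0.925 and -0.776 and between -0.925 and -0.735. Under median scaling the r of Atg2a with Atp6v1a was -0.208.

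**Figure D5:**
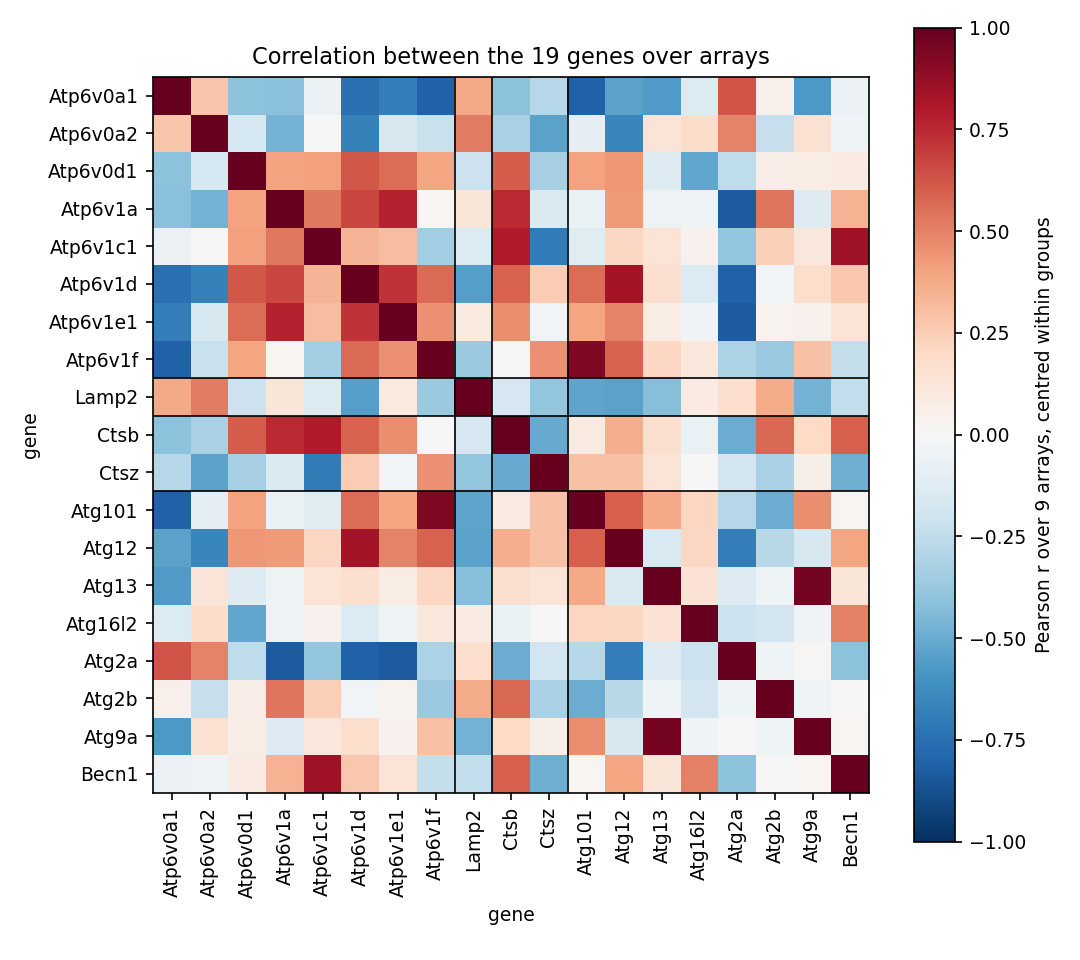
Pearson r between the 19 genes over the 9 arrays, each gene centred within its title group, with genes ordered by role. Atg13 with Atg9a is the closest pair at 0.957, and Atg2a runs against Atp6v1a at -0.833.

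Around these genes, 142 further genes of the system were listed by function. Of these, 61 had a probe and 43 were above background, 18 with a higher and 25 with a lower knockout mean, beside 49.8% of all probes with a higher one. Of the 43, 3 (6.98%) had an unadjusted p under 0.05, beside 11.5% of all probes, and 1 passed the adjusted threshold, beside 0.0244%. The lists were chosen with earlier results of these data known, so these shares do not test them. The gene past the threshold was Abcb9, a peptide transporter of the lysosomal membrane. It stood at 8.73, 8.72, 8.98 and 8.87 in knockout 1 to 4 and at 9.28, 9.48, 9.47, 9.41 and 9.37 in wild type 1 to 5, without overlap, and fell by 0.58 on the log2 scale (SE 0.067, adjusted p = 0.0431). The call was lost when any 1 wild type array, knockout 2 or knockout 4 was left out (adjusted p from 0.0527 to 0.208), although the difference stayed between -0.63 and -0.54 over all arrays left out. By the genotype characteristic the difference was 0.18.

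By group, 0 of 12 measured lysosomal enzymes passed, 6 higher and 6 lower with a median of 0.003. Pcyox1, a lysosomal enzyme that cleaves prenylated cysteine, differed by 0.21 (adjusted p = 0.476) and Hgsnat, a membrane enzyme of heparan sulfate breakdown, by -0.17 (adjusted p = 0.589). Among 9 membrane, sorting and regulatory genes, 3 were higher and 6 lower with a median of -0.03, and beside Abcb9 the smallest p was that of Cln8, a factor that moves enzymes out of the endoplasmic reticulum, at -0.14 (adjusted p = 0.449). Of 5 pump assembly genes, 3 were higher and 2 lower and 0 passed, with Ccdc115, an assembly factor, at 0.17 (adjusted p = 0.487) and Oxr1, a regulator of pump disassembly, at 0.22 (adjusted p = 0.505).

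The cystatins, inhibitors of the cysteine cathepsins, were measured through Cst3 alone, at -0.03 (adjusted p = 0.929). Of 11 other autophagy genes, 5 were higher and 6 lower and 0 passed. Tbk1, a kinase that phosphorylates autophagy receptors, differed by 0.33 (SE 0.095, adjusted p = 0.251), and Wdr45b, a WIPI protein that binds phosphoinositide on the forming membrane, by -0.38 (SE 0.125, adjusted p = 0.295). Of 5 genes of mTORC1 signalling at the lysosome, 1 was higher and 4 lower and 0 passed, with Rragd, a Rag GTPase, at -0.26 (adjusted p = 0.555) and Lamtor1, the Rags' membrane anchor, at -0.17 (adjusted p = 0.731). Several of these small differences leaned on 1 array. Without knockout 4 Pcyox1 was at 0.11, Ccdc115 at 0.095 and Lamtor1 at -0.33, without knockout 3 Hgsnat was at -0.069 and Lamtor1 at -0.066, and without knockout 2 Lamtor1 was at -0.11. Rragd was at -0.16 without knockout 1 and also without knockout 2.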

How the data were processed

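Per the labels' protocols, biotin-labelled RNA from 9 brain samples was measured on single-colour Illumina arrays. The authors deposited an intensity per probe that was not normalized, per the file headers. Beside it they deposited a fraction headed detection p-value, which rose with the signal (rank correlation at least 0.992), so 1 minus it was used. Their processed table holds log2 values as deposited, equal within 0.00510 to quantile-normalized log2 signals, with every column median at 7.52. For the authors' steps and the slides, the sources used here hold no statement.

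From the signals, limma 3.58.1 in R 4.3.3 computed normexp background correction, an offset of 16, quantile normalization and log2 (scale, centring and direction are therefore set here). Of 46116 probes, 16375 with detection p under 0.05 on at least 4 arrays were kept, lmFit and eBayes compared knockout with wild type, two-sided, and p-values were adjusted over all 16375. A gene stands by its kept probe of highest mean signal. Levels of different probes are not comparable. Only 9 arrays limit the precision.

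Genes were named by the number in the probe identifier. Of 10024 such numbers, 81.1% were in RefSeq's GRCm38.p6 table, against 42.5% to 45.9% after adding 1 to 3. In each of 4 roles up to 3 genes of smallest p have a value on every array and a difference, from each further list any gene past the threshold and up to 2 of smallest p, and from the pairs up to 4 of highest and 2 of lowest r. Members, lists and rules were chosen with earlier results of these data known. Values of Atp6v0a1 per array, the second probes and the split by sector were added after their values were seen. The fit was tested on simulated shifts larger than any difference of the 19 genes. Its power at the sizes seen here was not assessed. Correlations used scipy 1.17.1.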

Additional observations from a re-analysis of the deposited data

Results flagged for a closer look

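Of 60 groups of arrays looked at, the 2 genotypes for each of 30 named genes, 2 held an array that stood far from the others of its group, where chance gives about 1 in 20. Atg2b was at 8.03 in wild type 5, and the nearest wild type array was at 7.88. Atp6v0a1 was at 11.94 in knockout 4, and the nearest knockout array was at 12.39. Neither gene passed the adjusted threshold. The cause was not tested.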

How the results depend on the processing

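No alternative brought any of the 19 genes past an adjusted p of 0.05, so 0 of 19 held throughout. The cause of the shifts below was not tested. Over all probes 4 passed, and 0 passed by the genotype characteristic, by titles or the characteristic read through the processed table and with detection on all 9 arrays, 11 without background correction, 2 with median scaling, 13 with the authors' processed values, 1 with the replicate block, 2 with the Xist class as a covariate and 2 (without wild type 1, 2, 3 or 5) to 48 (without knockout 1) with 1 array left out, 7 without knockout 3. Of the 19 genes, 3 had an unadjusted p under 0.05, against 1 by the characteristic, 0 by the characteristic through the processed table, 4 with no filter (which adds Atp6v1a), 5 with the replicate block and 2 to 5 (without knockout 1) with 1 array left out. With no filter the otherwise unmeasured Atg4d and Lamp3 were under 0.05 as well, 6 genes in all. Replicate numbers did not pair the arrays (correlations of same-numbered arrays 0.101, 0.0885, -0.309 and 0.0113), and wild type 5 drops out of the block. The 1 call among the further genes, Abcb9, was 0 calls by the characteristic, in both readings of the processed table, with no filter, detection on all 9 arrays, no background correction, median scaling, cyclic loess, the replicate block and the Xist covariate, and 0 to 1 with 1 array left out.

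The median difference of the 19 genes, 0.071, was -0.026 by the characteristic, -0.008 by titles through the processed table, 0.035 by the characteristic through it, 0.038 with array weights and 0.027 (without knockout 4) to 0.078 with 1 array left out, 0.035 without wild type 4 and 0.037 without knockout 3. With no filter a median of 0.011 was found, but over a set that also counts the genes without a level above background. The filter left the differences of the named genes unchanged. The median correlation, 0.019, was 0.236 with median scaling and -0.058 (without knockout 1) to 0.070 (without wild type 4) with 1 array left out. Signs turned by the characteristic for Becn1 (-0.10), Atg2a (0.036), Ctsb (-0.096), Lamp2 (-0.091), Atp6v1c1 (-0.26), Atp6v1a (-0.12), Pcyox1 (-0.090), Hgsnat (0.12), Abcb9 (0.18), Ccdc115 (-0.13), Oxr1 (-0.013), Cst3 (0.12), Tbk1 (-0.17), Wdr45b (0.16) and Lamtor1 (0.19). By titles through the processed table they turned for Becn1 (-0.0076), Atp6v1c1 (-0.067), Pcyox1 (-0.0034), Ccdc115 (-0.12) and Cst3 (0.048), and by the characteristic through it for Lamp2 (-0.11), Atp6v1a (-0.0099), Cst3 (0.046) and Lamtor1 (0.077). Cst3 also turned with cyclic loess (0.017) and without knockout 2 (0.022) or knockout 3 (0.0061), with a range of -0.077 to 0.022 over arrays left out. A slide block was not run, since no slide is given in the sources used here. Probes near background limit the 13 genes without a level.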

Other observations

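Knockout 4, the array of lowest median signal, was the highest of the 9 arrays for 8 of the 19 genes (42.1%), against 21.3% of all probes, and the lowest for 3 (15.8%), against 20.8%. Knockout 2 was the highest for 5 genes (26.3%), against 11.4% of all probes. Knockout 2, 3 and 4 exceeded every wild type array for Becn1, Atp6v1c1, Atp6v1a and Ctsb, while knockout 1 did so for none of these 4. That is 4 of the 19 genes (21.1%), beside 3.69% of all probes, a pattern noticed after the values were seen. Knockout 1 was also the only knockout with a high Xist level, at 10.89, against 6.84 to 6.93 in knockout 2 to 4 and 10.46, 10.46, 6.90, 6.83 and 6.85 in wild type 1 to 5, and it had the highest value of Clic6, the measured choroid plexus marker, at 9.32, against 7.01 to 7.59 in the other knockouts and 7.45 to 8.81 in the wild types. The part of these in the pattern was not tested.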
